A study of Rattus norvegicus with 24 samples.

Results

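Fos, Jun and Egr1, the classical immediate early transcription factors, were followed as 3 of the 24613 genes counted in whole dorsal root ganglia (DRG) of 24 rats. They were taken by their Ensembl identifiers, ENSRNOG00000008015 (Fos), ENSRNOG00000026293 (Jun) and ENSRNOG00000019422 (Egr1), by a rule that uses no measured value, though earlier results of these data were known when they were picked. DRG hold the cell bodies of the sensory neurons that serve the body below the head, together with satellite glia, Schwann cells, vessels and resident macrophages. All animals were young adult female Sprague Dawley rats. The 4 No SCI rats were naïve to surgery, while 16 rats received a contusion of the spinal cord at T2 with an impact of 25 g-cm and 4 received a complete transection at T2 (TX SCI). Of the contused rats, 6 stayed without exercise (CONT SCI), 5 swam (CONT SCI + SWIM) and 5 walked in shallow water (CONT SCI + SWW), from 2.5 weeks after injury and for 10 weeks on 5 days per week. Every rat, uninjured ones included, lived in a small cage that restricted movement. A contusion spares some descending fibres and a transection spares none, and the DRG taken (T11 to L4, both sides, put together within each animal) lie far below either lesion. Tissue was collected 11.5 weeks after injury in CONT SCI, 13.5 weeks after injury in the exercised groups and 8.5 weeks after injury in TX SCI. The labels give the uninjured No SCI rats the same 11.5 weeks as CONT SCI. Time and group thus change together in every comparison except No SCI with CONT SCI and the exercised groups with each other.

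Immediate early genes are transcribed within minutes of a stimulus, before any new protein is made, and their messages are short-lived. In sensory neurons they are known to answer to depolarization, growth factors and axon damage. The Fos protein pairs with Jun through a leucine zipper to form the AP-1 transcription factor, Jun can also pair with itself and is known for its rise in neurons whose peripheral axon has been cut, and Egr1 is a zinc finger factor that binds GC-rich promoters. Fos and Egr1 are textbook targets of serum response factor, which binds the CArG box, and of CREB, which binds cAMP response elements.

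Only the Egr1 promoter is shown, since no promoter sequence of Fos or Jun was available, and it holds matches to these elements close to the start site. The sequence is the RefSeq reference of assembly GRCr8, plus strand, chr18:26736828-26737077, the 250 bases before the annotated start of Egr1. It is not of the Rn6 assembly on which the reads were counted. Capitals mark matches to the CArG box and to CGTCA, the core of the cAMP response element.
Egr1: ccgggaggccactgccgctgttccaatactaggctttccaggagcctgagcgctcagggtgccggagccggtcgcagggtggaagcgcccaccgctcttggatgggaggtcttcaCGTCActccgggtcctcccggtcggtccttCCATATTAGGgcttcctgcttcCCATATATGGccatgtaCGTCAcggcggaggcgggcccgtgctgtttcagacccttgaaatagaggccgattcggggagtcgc
The window held 2 CArG boxes, CCATATTAGG from 105 to 96 bases and CCATATATGG from 83 to 74 bases before the start. It also held 2 copies of CGTCA, from 135 to 131 and from 66 to 62 bases before the start, and no copy overlapped a CArG box. Of the 27457 promoters in the table, cut to the same 250 bases and searched on both strands, 1.5% held a CArG box and 19% held CGTCA or its reverse complement TGACG. The AP-1 site TGAGTCA and its reverse complement TGACTCA were not in this window, and 3.98% of all promoters held one of them. These are matches of letters only, and no binding was measured. Fos and Jun had no promoter entry in the table.

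The deposited values are raw counts of reads per gene. The reads counted on genes in 1 library ran from 29191327 to 38370849 in No SCI and CONT SCI, from 20040086 to 38730307 in TX SCI and from 16086670 to 29995120 in the exercised groups. Levels are given as counts-per-million values (CPM), scaled by the trimmed mean of M-values (TMM) over all 24 samples. Over 15247 genes, the mean correlation of a library with the others of its group lay between 0.989 and 0.993. The lowest of each group were No SCI replicate 3, CONT SCI replicate 4, TX SCI replicate 1, CONT SCI + SWIM replicate 4 and CONT SCI + SWW replicate 4, the last of which was the lowest of all. The matrix holds identifiers and no symbols, so the markers of DRG cell types and the other immediate early genes were not analysed here.

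Jun had the largest changes of the 3 genes. In TX SCI, CONT SCI + SWIM and CONT SCI + SWW, Jun was below its level in No SCI and in CONT SCI in all 6 comparisons between them, with a log2 fold change from -1.04 to -0.89. Taken against CONT SCI, it fell by 47.6% in TX SCI, and it fell by 49.6% in CONT SCI + SWIM. In No SCI, Jun stood at 95.2, 89.8, 79.4 and 102 CPM in replicates 1 to 4. In the 6 CONT SCI rats, it ranged from 70.0 to 97.7 CPM, with a median of 90.2. These 2 groups overlapped along most of their range. In TX SCI, Jun stood at 49.2, 46.2, 47.2 and 40.8 CPM. It stood at 46.3, 39.5, 38.0, 49.6 and 49.6 CPM in CONT SCI + SWIM, and at 47.3, 55.0, 49.5, 50.2 and 36.4 CPM in CONT SCI + SWW. The 10 No SCI and CONT SCI samples lay between 70.0 and 102 CPM and the 14 others between 36.4 and 55.0, with no overlap. This split, described after the values were seen, is also that of the rats taken at 11.5 weeks from all others, and 4.41% of 15247 genes were likewise lower in every one of the 14 rats than in any of the 10.

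**Figure D1:**
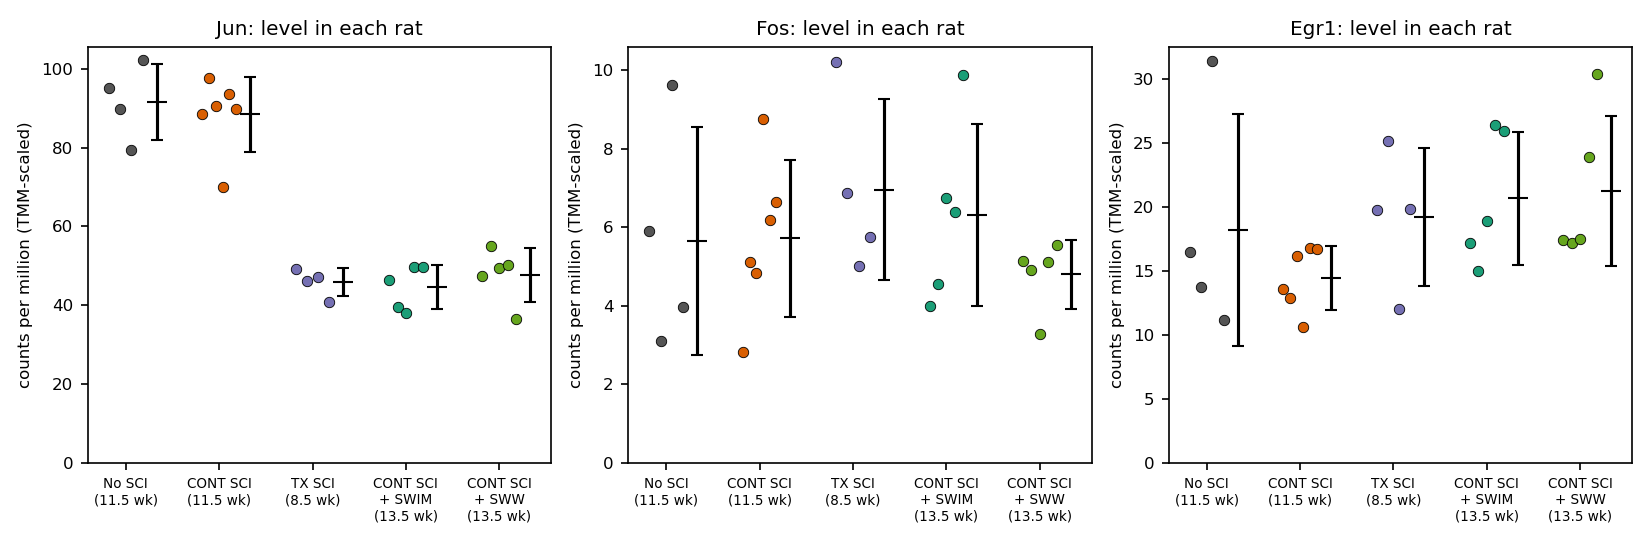
Level of Jun, Fos and Egr1 in each rat, in TMM-scaled CPM (linear axes from 0), by group with the labelled time of collection in weeks. Points are rats, and the bar beside them is the mean with its SD. Jun lies between 70.0 and 102 CPM in all 10 No SCI and CONT SCI rats and at or below 55.0 CPM in the 14 others, while the groups overlap for Fos in every pair.

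Group means of Jun followed the order No SCI (91.7 ± 9.64 CPM, SD, n = 4), CONT SCI (88.4 ± 9.58, SD, n = 6), CONT SCI + SWW (47.7 ± 6.90, SD, n = 5), TX SCI (45.9 ± 3.58, SD, n = 4) and CONT SCI + SWIM (44.6 ± 5.51, SD, n = 5). TX SCI lay below No SCI by a log2 fold change of -0.99 (SE 0.10, adjusted p = 2.56e-06, from the quasi-likelihood test of edgeR, adjusted by Benjamini-Hochberg over all genes). In that comparison 17.3% of all genes tested were called lower, and 33.1% did not overlap between the groups in either direction. Against CONT SCI, TX SCI differed by -0.93 on the log2 scale (SE 0.09, edgeR adjusted p = 1.65e-06), with 20.6% of all genes called lower and 25.4% not overlapping. In whole DRG, fewer cells of a type that makes Jun and less Jun RNA per cell cannot be told apart.

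Both exercised groups had less Jun than the contused rats without exercise. The log2 fold change was -0.99 for CONT SCI + SWIM (SE 0.10, edgeR adjusted p = 2.2e-07) and -0.89 for CONT SCI + SWW (SE 0.10, edgeR adjusted p = 5.03e-07), in comparisons where 19.6% and 24.3% of all genes were called lower and 15.8% and 24.5% did not overlap. Against No SCI, the differences were -1.04 (SE 0.11, edgeR adjusted p = 4.1e-07; 16.1% of genes called lower and 24% not overlapping) for CONT SCI + SWIM and -0.94 (SE 0.11, edgeR adjusted p = 1.56e-06; 13.8% of genes called lower and 21.4% not overlapping) for CONT SCI + SWW. These comparisons share samples and are not independent of each other. The absolute change of Jun was larger than that of 94.5% to 96.5% of the genes tested in each of the 6 comparisons. Each change kept its sign and its call in all 100 alternative values of the 6 comparisons, with fold changes from -1.11 to -0.80 on the log2 scale. Many of these values share a fit, so they are not separate checks.

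Within each set of groups, no difference in Jun passed the test. From No SCI to CONT SCI, both labelled as taken at 11.5 weeks, Jun differed by a log2 fold change of -0.06 with a 95% confidence interval from -0.24 to 0.13 (edgeR adjusted p = 0.806; 10.4% of all genes were called in either direction). CONT SCI replicate 4, at 70.0 CPM, lay lowest of the CONT SCI samples, and without it the log2 difference was 0.0036. CONT SCI + SWIM and CONT SCI + SWW differed by -0.09 (interval -0.32 to 0.13, edgeR adjusted p = 0.668; 2.99% of all genes called). TX SCI differed from CONT SCI + SWIM by 0.04 (interval -0.19 to 0.26, edgeR adjusted p = 0.866; 14.4% called) and from CONT SCI + SWW by -0.06 (interval -0.28 to 0.16, edgeR adjusted p = 0.744; 22% called). A change of Jun of the size seen between the sets lies outside each of these intervals.

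**Figure D2:**
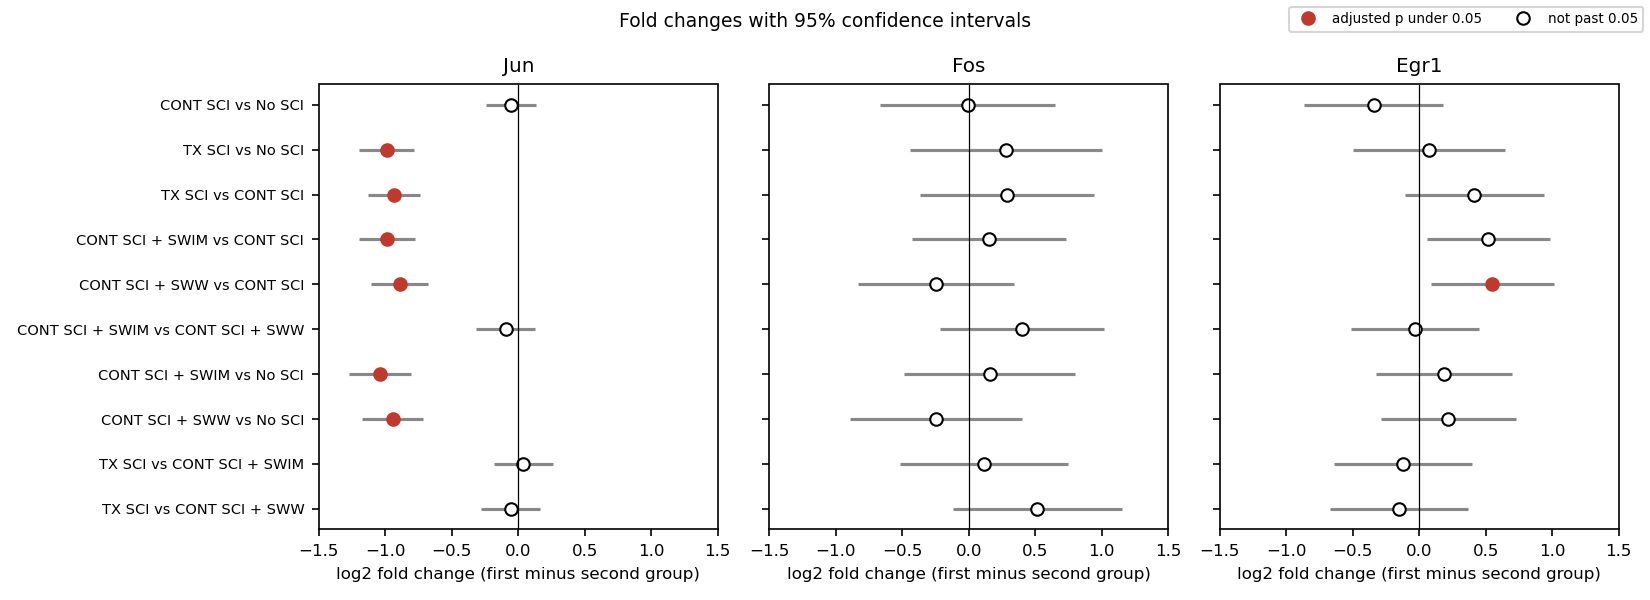
Log2 fold change (first group minus second) of Jun, Fos and Egr1 in all 10 comparisons, with 95% confidence intervals as bars. Red points passed an adjusted p of 0.05 in edgeR's quasi-likelihood test and open points did not. Jun was lower in 6 comparisons, between -1.04 and -0.89, and Egr1 higher in 1, at 0.55.

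The libraries of the 3 groups with less Jun were for the most part also smaller, and the part of depth in the result was not tested. Jun was counted with 2094 to 3455 reads per library in No SCI and CONT SCI and with 641 to 1850 in the other groups, and counting error alone amounts to 1.70% to 3.95% of a value. The time of collection cannot be told apart from the groups, since the 10 samples with high Jun were those taken at 11.5 weeks. A difference in library preparation was not tested, as the labels name no batch.

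**Figure D3:**
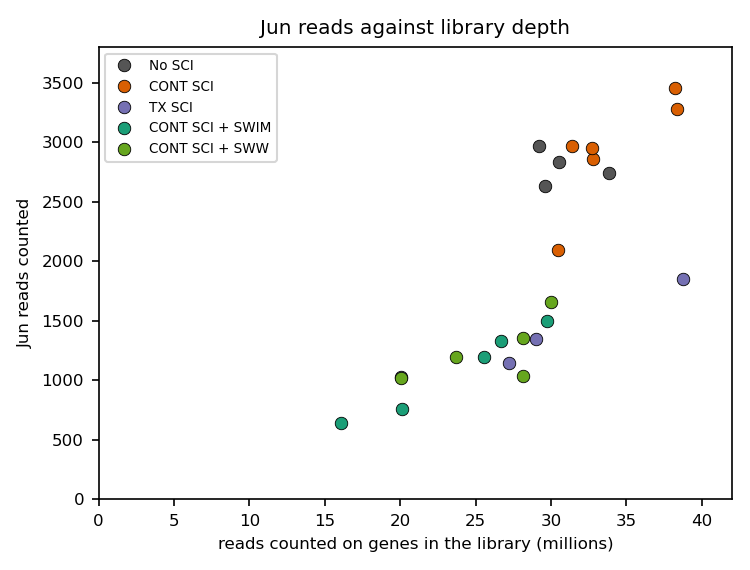
Jun reads counted (vertical axis) against the reads counted on all genes of the library (horizontal axis, linear, from 0), 1 point per rat, coloured by group. The No SCI and CONT SCI libraries hold 2094 to 3455 Jun reads and the others, most of them smaller, 641 to 1850.

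Fos, the partner of Jun in AP-1, was the least counted member and passed the test in no comparison. In No SCI, it stood at 5.91, 3.11, 9.63 and 3.97 CPM in replicates 1 to 4. It ranged from 2.81 to 8.76 CPM with a median of 5.64 in CONT SCI. In TX SCI, it stood at 10.2, 6.88, 5.00 and 5.74 CPM. The single rats thus differed as much inside a group as between groups. Fos stood at 3.99, 4.56, 6.74, 6.40 and 9.87 CPM in CONT SCI + SWIM, and at 5.13, 4.91, 3.27, 5.12 and 5.54 CPM in CONT SCI + SWW. Group means ran from TX SCI (6.96 ± 2.30 CPM, SD, n = 4) over CONT SCI + SWIM (6.31 ± 2.31, SD, n = 5), CONT SCI (5.72 ± 2.00, SD, n = 6) and No SCI (5.65 ± 2.90, SD, n = 4) to CONT SCI + SWW (4.80 ± 0.881, SD, n = 5). No neighbours in this order, and no other pair, differed by the test. By edgeR, 0 of the 10 comparisons of Fos passed an adjusted p of 0.05 (lowest 0.241), and 0 had an unadjusted p under 0.05. DESeq2 called none either.

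The intervals for Fos are wide and leave room for sizeable changes. The largest difference was that of TX SCI over CONT SCI + SWW, 0.52 on the log2 scale with a 95% interval from -0.12 to 1.16 (edgeR adjusted p = 0.241). Without TX SCI replicate 1, the rat with the highest Fos of all, it was 0.2922. For TX SCI against No SCI, the log2 fold change was 0.28 with an interval from -0.45 to 1.00 (edgeR adjusted p = 0.557), and for CONT SCI against No SCI it was -0.01 with an interval from -0.67 to 0.65 (edgeR adjusted p = 0.995). Without No SCI replicate 3, which had the highest Fos of its group, the last difference was 0.39 (edgeR adjusted p = 0.484) and that of TX SCI against No SCI 0.6745 (edgeR adjusted p = 0.112). Without TX SCI replicate 1, TX SCI differed from No SCI by 0.0409. Fos was counted with 74 to 333 reads per sample, a counting error of 5.48% to 11.6% of a value.

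Egr1 lay higher in the exercised groups than in CONT SCI, close to the threshold of the test. In No SCI, it stood at 16.4, 13.7, 31.4 and 11.2 CPM in replicates 1 to 4. The 6 CONT SCI rats lay between 10.6 and 16.8 CPM, with a median of 14.8. Egr1 stood at 19.8, 25.1, 12.0 and 19.8 CPM in TX SCI. No SCI replicate 3 had the highest value of all 24 rats, and CONT SCI had the narrowest range. In CONT SCI + SWIM, Egr1 stood at 17.1, 14.98, 18.9, 26.4 and 25.9 CPM, and in CONT SCI + SWW at 17.4, 17.2, 17.4, 23.9 and 30.4 CPM. The CONT SCI + SWW rats all lay above the CONT SCI rats, while 1 CONT SCI + SWIM rat lay within the CONT SCI range.

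Group means of Egr1 ran from CONT SCI + SWW (21.2 ± 5.85 CPM, SD, n = 5) over CONT SCI + SWIM (20.7 ± 5.20, SD, n = 5), TX SCI (19.2 ± 5.38, SD, n = 4) and No SCI (18.2 ± 9.04, SD, n = 4) to CONT SCI (14.4 ± 2.50, SD, n = 6), and no neighbours in this order differed by the test (edgeR adjusted p from 0.5 to 0.96). CONT SCI + SWW exceeded CONT SCI by 0.55 on the log2 scale, 46.5% (SE 0.22, edgeR adjusted p = 0.0495), in a comparison where 18.7% of all genes were called higher and 24.5% did not overlap between the groups in either direction. DESeq2 gave 0.57 and did not call it (adjusted p = 0.054). A fit of all 24 samples gave 0.5532 and did not call it either (edgeR adjusted p = 0.0509). These were among 7 other fits of all libraries, of which 5 kept the call. The main edgeR call was lost without any 1 of 6 libraries, CONT SCI replicates 1 to 4 and CONT SCI + SWW replicates 4 and 5. Without CONT SCI + SWW replicate 5, the rat with the highest Egr1 and the lowest Jun of its group, the log2 difference was 0.40 (edgeR adjusted p = 0.174), and without CONT SCI replicate 4 it was 0.4765 (edgeR adjusted p = 0.0967). Without any 1 of the others it stayed between 0.5059 and 0.5839. CONT SCI + SWIM exceeded CONT SCI by 0.52 (SE 0.22, interval 0.06 to 0.98), which did not pass (edgeR adjusted p = 0.0795; 12.6% of all genes were called higher). Of 7 other fits of all libraries, 5 did not pass either, and it passed in a fit of only these groups (0.5481, edgeR adjusted p = 0.0168) and under a block on replicate numbers, which pair nothing (0.5586, edgeR adjusted p = 0.0491). It passed in none of the 11 fits with 1 library left out (edgeR adjusted p from 0.056 to 0.197). The exercised groups did not differ from each other (log2 difference -0.03, interval -0.51 to 0.45, edgeR adjusted p = 0.96).

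Against No SCI, no difference of Egr1 passed with all libraries, and the values moved up or down when single libraries were left out. The log2 fold changes were -0.34 for CONT SCI (interval -0.86 to 0.18), 0.07 for TX SCI (interval -0.50 to 0.64), 0.19 for CONT SCI + SWIM (interval -0.32 to 0.70) and 0.22 for CONT SCI + SWW (interval -0.29 to 0.73). Without No SCI replicate 3, they were 0.0665, 0.4795, 0.5869 and 0.6175, and those of the exercised groups passed (edgeR adjusted p = 0.043 for CONT SCI + SWIM and 0.0423 for CONT SCI + SWW). In the comparisons with all libraries, 12% and 9.17% of all genes were called higher. Without No SCI replicate 4, the log2 fold changes of Egr1, in the same order, were -0.5167, -0.1035, 0.0142 and 0.0454, and none passed. That of TX SCI also turned sign without No SCI replicate 2 (-0.0435) and without TX SCI replicate 2 (-0.0872). Fos of No SCI replicate 3 was also the highest of its group, and its Jun, at 79.4 CPM, the lowest. TX SCI exceeded CONT SCI by 0.41 (interval -0.11 to 0.94, edgeR adjusted p = 0.19), and by 0.2554 without TX SCI replicate 2.

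The reads of Egr1 and Fos were also set against those of Jun in the same library, a measure that no scaling of libraries can change and that was added after the counts were seen. Per 100 Jun reads, the CONT SCI rats held 16.3 ± 2.11 Egr1 reads (SD, n = 6) and the No SCI rats 20.7 ± 12.8 (SD, n = 4). The TX SCI rats held 42.1 ± 12.5 (SD, n = 4), the CONT SCI + SWIM rats 46.0 ± 7.93 (SD, n = 5) and the CONT SCI + SWW rats 46.8 ± 21.3 (SD, n = 5). The CONT SCI rats, between 13.2 and 18.6, lay below every rat of these last 3 groups, the lowest of which had 25.5. Since Jun itself was lower in these groups, a gene that stays level also rises against it. Reads per Jun read were higher in every TX SCI rat than in any CONT SCI rat for 78.3% of 15246 genes, and the share was 74.7% for CONT SCI + SWIM and 66.9% for CONT SCI + SWW. The separation of the Egr1 ratio was thus shared with most genes, and it is given as a description. No SCI replicate 3 reached 39.5 Egr1 reads per 100 Jun reads and overlapped with the TX SCI and exercised rats.

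**Figure D4:**
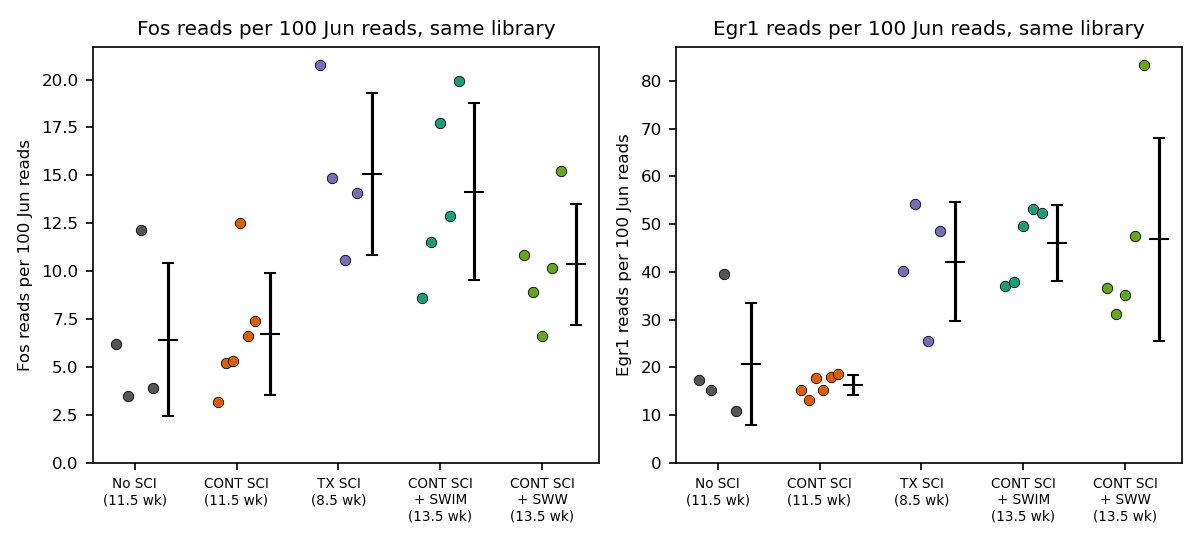
Fos reads (left) and Egr1 reads (right) per 100 Jun reads of the same library (linear axes from 0), 1 point per rat, with mean and SD beside. Egr1 per 100 Jun reads lies between 13.2 and 18.6 in CONT SCI and at or above 25.5 in the TX SCI and exercised rats, while the Fos ratio overlaps between all pairs of groups.

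Per 100 Jun reads, the No SCI rats held 6.42 ± 4.00 Fos reads (SD, n = 4) and the CONT SCI rats 6.70 ± 3.19 (SD, n = 6). The TX SCI rats held 15.1 ± 4.23 (SD, n = 4), the CONT SCI + SWIM rats 14.1 ± 4.61 (SD, n = 5) and the CONT SCI + SWW rats 10.4 ± 3.16 (SD, n = 5). The groups overlapped in every pair. CONT SCI replicate 4 had the highest Fos ratio of its group, 12.5, with the lowest Jun and the highest Fos.

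The members also differed in how much rats of the same group varied. The SD of log2 CPM within groups was 0.51 for Fos, 0.41 for Egr1 and 0.18 for Jun, against a median of 0.15 over 15247 genes. In this measure Egr1 lay above 90.4% of all genes and Jun above 60.2%, with Fos higher still. The biological coefficient of variation, the spread between rats that edgeR estimates beyond counting error, was 31.1% for Fos, 25.6% for Egr1 and 10.98% for Jun, where genes of the same abundance had a trend of 14.2%, 10.1% and 8.36%.

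The deviations of Fos and Egr1 within groups had the same sign more often than not, but in log2 CPM their relation did not pass the test. The deviations of log2 CPM from the group means had a Pearson's r of 0.55 over the 24 rats (permutation within groups, 100000 permutations, p = 0.0176; 0.0529 after adjustment over 3 pairs) and a Spearman's rho of 0.53 (permutation p = 0.0186, adjusted 0.0557), and they had the same sign in 17 of 24 rats. Without the 2 rats whose Fos lay farthest from the median, CONT SCI replicate 1 and No SCI replicate 3, r was 0.43 (unadjusted permutation p = 0.0817). In log2 CPM, the relation passed an adjusted p of 0.05 neither with all 24 rats nor without these 2. After a variance stabilizing transformation of the counts, r over all 24 rats was 0.564 and passed narrowly (permutation adjusted p = 0.0469). With 1 rat left out, r ranged from 0.39 without No SCI replicate 3 (permutation adjusted p = 0.245) to 0.70 without CONT SCI replicate 4 (permutation adjusted p = 0.00438). Of the 24 such values, 5 passed, and 4 of these had an adjusted permutation p from 0.0397 to 0.0496. Fos and Jun had r = -0.20 and rho = -0.09 (permutation adjusted p = 0.486 and 0.824), and Jun and Egr1 had r = -0.16 and rho = -0.05 (permutation adjusted p = 0.486 and 0.824). Without the 2 rats farthest from the median of the first-named gene, r was -0.07 for Fos and Jun and -0.14 for Jun and Egr1. Signs were the same in 13 of 24 rats for Fos and Jun and in 12 for Jun and Egr1. Both values of a rat come from 1 library.

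**Figure D5:**
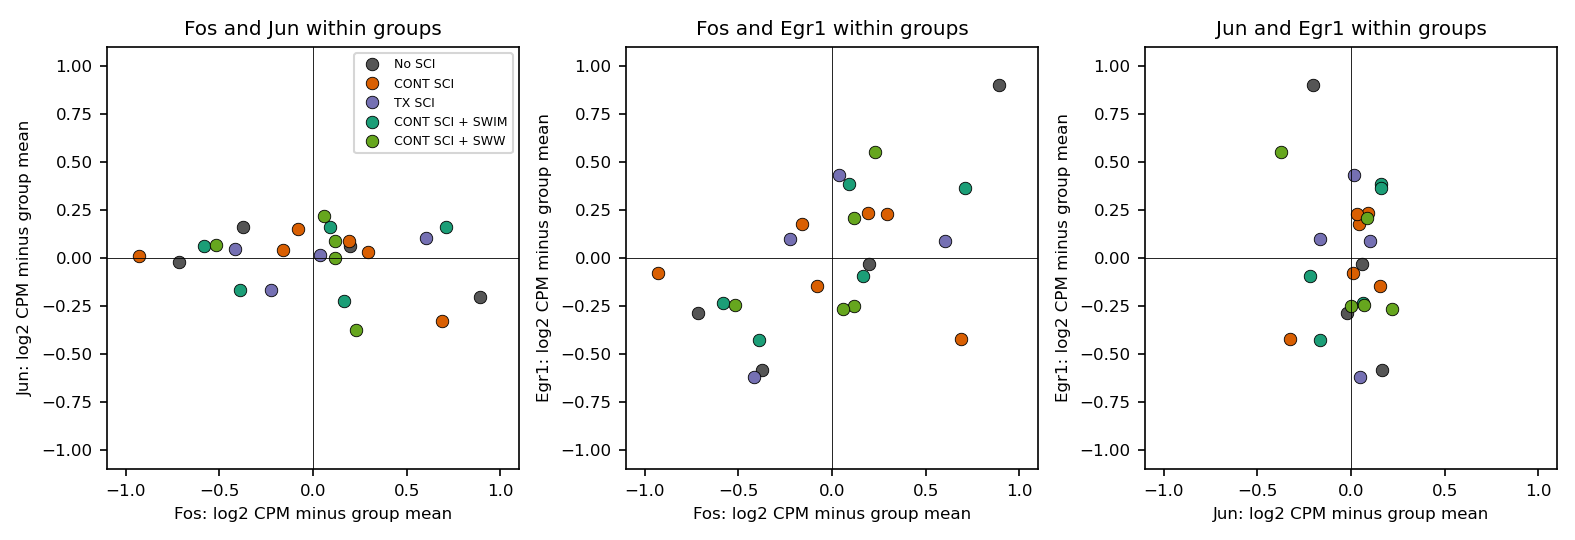
Deviation of each rat's log2 CPM from its group mean for the 3 pairs of members, on equal axes, 1 point per rat (n = 24), coloured by group. Fos and Egr1 deviate with r = 0.55, No SCI replicate 3 lying at the upper right, while the pairs with Jun have r = -0.20 and -0.16.

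Other genes shared the pattern of Jun far more often than that of Fos or Egr1. Of the 12517 genes whose average log2 CPM was 1 or more, 1510 (12.1%) had a Pearson's r of at least 0.7 with Jun over the 24 samples, the highest at 0.98. With Egr1 it was 1 gene, at 0.71, and with Fos 0 genes, the highest at 0.67. These correlations hold the differences between groups as well as those between rats, and the genes share the same libraries. No gene was close to all 3 members: the highest mean r was 0.31 (ENSRNOG00000047924; 0.31 with Fos, 0.57 with Jun and 0.04 with Egr1), followed by 0.30 (ENSRNOG00000010473). The members themselves limit this value, since Jun was little related to Fos and Egr1 within groups (r = -0.20 and -0.16). For deviations from the group means, the highest mean r was 0.50 (ENSRNOG00000021220; 0.58 with Fos, 0.35 with Jun and 0.57 with Egr1), followed by 0.46 (ENSRNOG00000033734).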

How the data were processed

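RNA was measured in DRG of 24 rats (polyA-enriched, stranded, single-end reads). The authors aligned reads with STAR to Rn6 and deposited raw counts per Ensembl gene from HTSeq 0.10.0, using strand and leaving out mitochondrial genes and reads that fit several genes. Their quality check was FastQC 0.10.1. Columns were matched to samples by group and replicate.

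From the counts, edgeR 4.0.16 in R 4.3.3 was used with filterByExpr (minimum count 10, minimum total 15), TMM and glmQLFTest, adjusted over all genes by the Benjamini-Hochberg method (threshold 0.05). The injury set (14 samples, 15126 genes) gave comparisons among No SCI, CONT SCI and TX SCI, the exercise set (20 samples, 15179 genes) those with exercise, and all samples (15247 genes) those of TX SCI with exercise. Standard errors were taken from the fold change and its F statistic. Log2 CPM used a prior count of 2. Scripts were tested on simulated data. DESeq2 1.42.0, other scalings, filters and sample sets, a replicate block and each sample left out were alternatives. Within a group, no 2 libraries agreed within sampling noise (chi-square per gene 2.89 to 52.6 over 47 pairs).

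The members and lists were chosen with earlier results of these data known. The ratios and the scaling by library totals were added after the counts were seen. Named genes were the members and, by identifier, the 2 genes most like them by each measure. The RefSeq table (GRCr8, 47357 genes) carries 0 Ensembl identifiers, so the lists of immediate early, upstream and marker genes were not analysed here. All 3 members matched it by symbol, and 1 had a promoter entry. Same-numbered samples are different rats, and the numbers pair nothing.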

Additional observations from a re-analysis of the deposited data

Results flagged for a closer look

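Among 15 sets of values (3 genes in 5 groups), of which 0.75 would be expected by chance to hold a rat that far from the others, 2 did. Fos in CONT SCI + SWW replicate 3 was 3.27 CPM, below the other 4 rats of its group by 0.721 of the range (critical value 0.71). Jun in CONT SCI replicate 4 was 70.0 CPM, below the other 5 rats by 0.667 of the range (critical value 0.625), in the library with the lowest mean correlation of its group. Jun also differed between the injuries, as given above: TX SCI lay below CONT SCI by a log2 fold change of -0.93 (edgeR's quasi-likelihood test, adjusted p = 1.65e-06). By construction this equals the difference between the 2 injuries' changes from No SCI. In this comparison 20.6% of all genes tested were called lower. TX SCI was collected at 8.5 weeks and CONT SCI at 11.5 weeks, which cannot be told apart from the injury.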

How the results depend on the processing

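The 6 lower calls of Jun held in all 100 alternative values (highest adjusted p 0.000167). Of 349 alternative values other than a sample left out, 334 kept the main result, and of 816 with 1 sample left out, 718 did. A tested value had to keep its direction and side of the threshold, and a count of genes or members its size within 1.5 times. The spread of a gene between rats had to stay within its jackknife standard error. That margin is drawn from the left-out values themselves, and all 24 per gene lay within it. The 816 also include tests of the ratios to Jun, which are given above only as a description. Changes in the calls of those ratios are not listed below. The cause of the changes below was not tested. For Egr1 in CONT SCI + SWIM against CONT SCI, a fit of only the 2 groups gave 0.5481 (adjusted p = 0.0168) and called 2 members in place of 1, with 4454 genes called in place of 4880. For Egr1 in CONT SCI + SWW against CONT SCI, DESeq2 gave 0.5672 (adjusted p = 0.054) and a fit of all 24 samples 0.5532 (adjusted p = 0.0509), and each called 1 member in place of 2, with 6739 and 6601 genes called in place of 6522. Fos in CONT SCI against No SCI turned sign near 0, with 0.003 without a filter, 0.0032 by DESeq2 and 0.0029 with all 24 samples. After a variance stabilizing transformation, the correlation of Fos and Egr1 was 0.564 (permutation adjusted p = 0.0469).

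Same-numbered samples are different rats, and their deviations had a mean correlation between -0.104 and 0.0476, so the numbers do not pair them. With the replicate number as a block, Egr1 in CONT SCI + SWIM against CONT SCI was 0.5586 (adjusted p = 0.0491), with 2 members and 4301 genes called, and TX SCI against CONT SCI + SWIM turned to 0.007. All other calls of the members were the same under the block.

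With 1 sample left out, the log2 difference between CONT SCI and No SCI ranged from -0.2078 to 0.391 for Fos, from -0.1183 to 0.0036 for Jun and from -0.5167 to 0.0665 for Egr1. TX SCI against No SCI ranged from 0.0409 to 0.6745 for Fos and from -0.1035 to 0.4795 for Egr1, and against CONT SCI from 0.0386 to 0.4383 and from 0.2554 to 0.5893. CONT SCI + SWIM against No SCI ranged from -0.0648 to 0.5459 for Fos and from 0.0142 to 0.5869 for Egr1, and CONT SCI + SWW against No SCI from -0.46 to 0.1437 and from 0.0454 to 0.6175. CONT SCI + SWIM against CONT SCI ranged from -0.0684 to 0.3116 for Fos, and CONT SCI + SWW against CONT SCI from 0.3963 to 0.6188 for Egr1. CONT SCI + SWW against CONT SCI ranged from -0.3904 to -0.0911 for Fos. Between the exercised groups, Fos ranged from 0.179 to 0.534 and Egr1 from -0.1373 to 0.1517. TX SCI against CONT SCI + SWIM ranged from -0.1216 to 0.338 for Fos, from -0.0342 to 0.0769 for Jun and from -0.2839 to 0.0513 for Egr1. Against CONT SCI + SWW, it ranged from 0.2922 to 0.6603 for Fos, from -0.1408 to 0.0007 for Jun and from -0.3137 to 0.0311 for Egr1. The number of members called ranged from 1 to 2 in CONT SCI + SWW against CONT SCI (5917 to 6723 genes called) and against No SCI (2614 to 3369), and in CONT SCI + SWIM against No SCI (3158 to 4620). The correlation within groups ranged from 0.3941 to 0.7034 for Fos and Egr1 and from -0.3247 to 0.0393 for Jun and Egr1. The log2 Egr1 to Jun ratio turned sign between the exercised groups (-0.0663 to 0.2885), between CONT SCI and No SCI (-0.4296 to 0.1883) and between TX SCI and CONT SCI + SWIM (-0.3049 to 0.0591) or CONT SCI + SWW (-0.2491 to 0.1238). That of Fos to Jun turned between CONT SCI and No SCI (-0.111 to 0.4923) and between TX SCI and CONT SCI + SWIM (-0.0539 to 0.2701).

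The 454 genes called between the exercised groups were 768 by DESeq2, 251 under the block and 123 to 811 with 1 sample left out. Without No SCI replicate 2, 1041 genes were called between CONT SCI and No SCI in place of 1578. Without TX SCI replicate 4, the 2193 and 3359 genes called between TX SCI and CONT SCI + SWIM or CONT SCI + SWW were 1333 and 2026. Fos had the fewest reads, 74 to 333 per sample.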
